A study of Macaca mulatta with 2 samples.

Results

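Messenger RNA was measured for 10 genes of steroid hormone synthesis in cultured Sertoli cells of the rhesus macaque (Macaca mulatta). They are STAR, CYP11A1, FDX1, CYP17A1, HSD3B1, HSD3B2, HSD17B3, HSD17B1, CYP19A1 and LHCGR, taken by name from the gene names printed on the array, control spots left out. The array named 21509 genes, and 16 of its 50238 probes carried one of these 10 names. The pubertal array held RNA from a primary testicular culture of animals aged 18 to 22 months, juveniles in which puberty had been brought on with gonadotropin-releasing hormone (GnRH), infused through a catheter for 4 to 5 weeks in 2 min pulses of 0.15 µg/min, spaced 3 h apart. The infant array held RNA from a culture of males younger than 3 months, for which the labels name no GnRH. For 12 h both cultures were given follicle-stimulating hormone (FSH) at 5 ng/ml together with 100 nM testosterone, so every value below is one under added androgen and FSH, and no culture without them was analysed here. There was 1 array per group, so no difference carries a test, and age, GnRH, animals and culture cannot be told apart. The sources used here do not give the number of animals behind either culture.

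Steroid hormones are made from cholesterol. The carrier STAR brings cholesterol to the inner mitochondrial membrane, where CYP11A1 cuts its side chain to give pregnenolone with electrons passed on by ferredoxin, the product of FDX1. HSD3B enzymes, CYP17A1 and HSD17B3 then lead to progesterone, androstenedione and testosterone, while CYP19A1 (aromatase) and HSD17B1 lead to estradiol. In the testis the androgen route belongs to Leydig cells, which sense luteinising hormone through LHCGR, and immature Sertoli cells are known for aromatase that answers to FSH. Expression of STAR and CYP17A1 in steroid-producing cells is raised by cAMP and needs the nuclear receptor NR5A1, which NR0B1 represses.

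The probes are human 60-base oligonucleotides, so that macaque RNA had to cross-hybridise, and a mismatch lowers a probe's signal in both cultures. All 10 names occur in the Ensembl macaque gene table and 9 in the RefSeq one, which has no entry named HSD3B1. The 5 probes below are shown because they carry the side-chain cleavage step, the androgen and estrogen steps and the receptor, and each can be read through in at least 1 frame without a stop codon. They are written 5′ to 3′ as the array files give them, in lower case throughout.
CYP11A1: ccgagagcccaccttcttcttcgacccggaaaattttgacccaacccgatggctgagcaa
FDX1: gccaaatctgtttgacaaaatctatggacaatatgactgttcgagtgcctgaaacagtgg
HSD17B3: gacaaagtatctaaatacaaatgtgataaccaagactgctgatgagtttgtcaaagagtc
HSD17B1: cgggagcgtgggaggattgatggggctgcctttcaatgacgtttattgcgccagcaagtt
LHCGR: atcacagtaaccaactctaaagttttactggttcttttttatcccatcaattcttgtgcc

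The pubertal culture had far lower signals for STAR and CYP17A1, and a lower one for CYP11A1. The genes for the HSD3B enzymes, HSD17B3 and HSD17B1 differed by less than 2-fold, and LHCGR and CYP19A1 were not well above background in either culture. Of the 10 genes, 8 had at least 1 probe that both arrays put well above background, in all 11 of the 16 probes. Among those 8 genes, 3 were at least 2-fold lower in pubertal cells and 0 were at least 2-fold higher. Over all 14243 named genes measured on both arrays, 6.32% were at least 2-fold lower and 7.32% at least 2-fold higher. Values lay below 0 for 5 of the 8 genes and for 54.2% of all genes. The median difference (log2, pubertal minus infant) was -0.47 over the 8 genes and -0.06 over all genes. Values on the log2 scale are given against the 75th percentile of each array, at 407 intensity units for the pubertal and 382 for the infant array. Gene spots well above background made up 54.9% of the pubertal array and 54.8% of the infant array, and none was saturated. Fewer cells that hold a transcript and less of it per cell cannot be told apart in RNA from whole cultures.

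**Figure D1:**
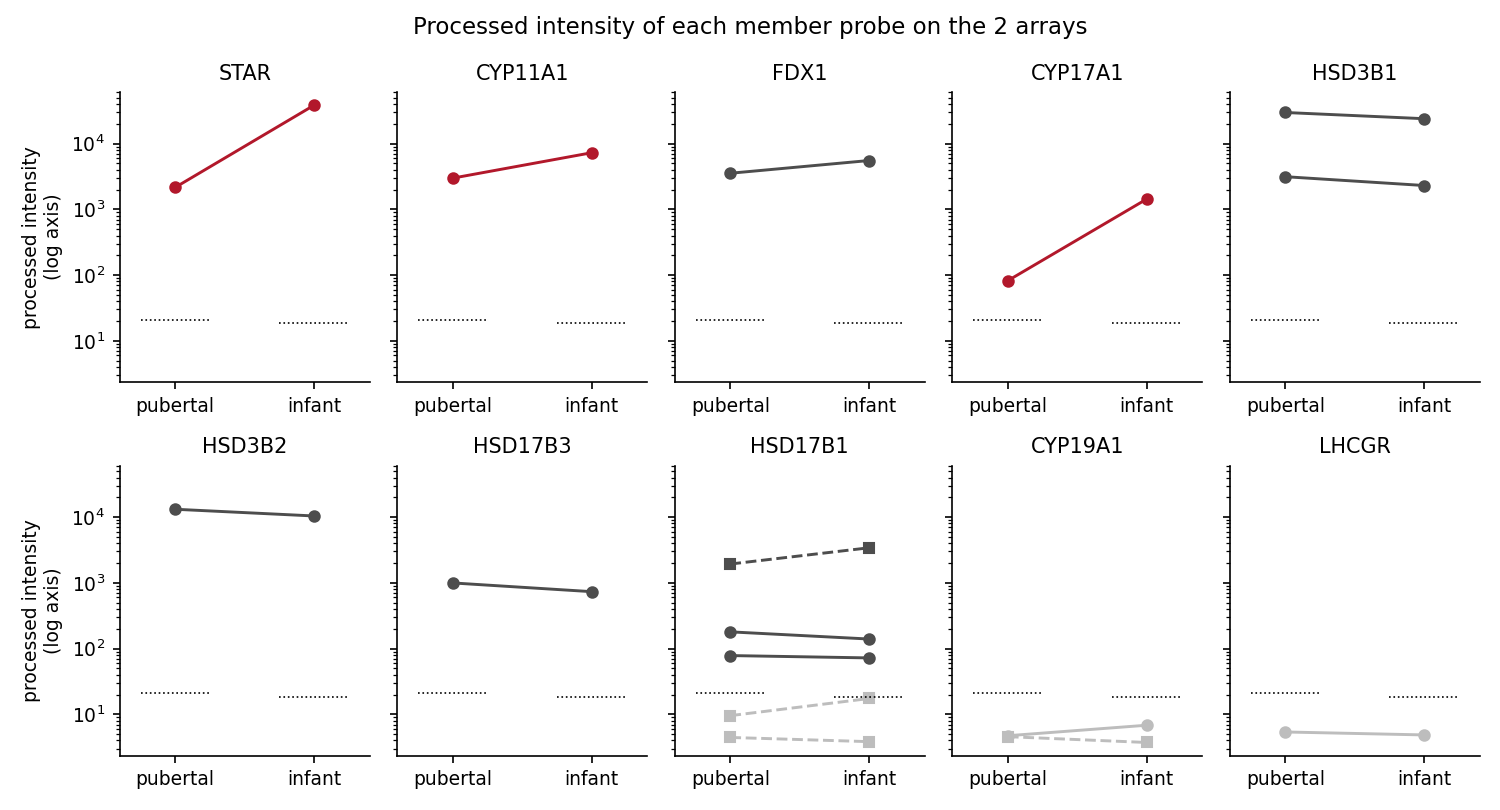
Processed intensity (log axis) of each of the 16 probes on the pubertal and the infant array, a panel per gene. Circles and solid lines are probes designed on a RefSeq mRNA, squares and dashed lines probes designed on a cDNA clone, red marks probes at least 2-fold lower in pubertal cells, pale grey marks probes not well above background on both arrays, and dotted lines give the lowest signal well above background on each array. The lines of STAR and CYP17A1 are the steepest, and those of the HSD3B genes and HSD17B3 are nearly level.

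STAR, the cholesterol carrier, was much lower in the pubertal culture. Its probe had a processed intensity of 2158 in pubertal cells and 38384 in infant cells. It was therefore a bright spot on both arrays, and the gap was not one between signal and background. The difference was -4.24 on the log2 scale (18.9-fold lower), with an error of 0.20. This error is that of the scanner software, it is set mainly by a fixed fraction of the signal, and it covers the spot and not the culture. Of the 14243 genes, 8 had a lower difference than STAR.

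STAR rests on 1 spot per array, so its surroundings were measured too. The 47 gene spots within 4.2 grid units had a median difference of 0.11, and the spot was flagged neither as an outlier nor as saturated. Before any background was removed the spot's mean signal was 2220 on the pubertal array, over a local background of 33, and 38075 on the infant one, over 32. The gap is thus present in the unprocessed signal. Across 13 other ways of processing the arrays the difference lay between -4.40 and -3.33.

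CYP11A1, the side-chain cleavage enzyme that makes pregnenolone, was also lower in the pubertal culture, by a smaller factor. Its probe had an intensity of 2983 in pubertal cells and 7259 in infant cells, a difference of -1.37 (2.59-fold lower, error 0.20). FDX1, whose ferredoxin feeds electrons to CYP11A1, had 3539 in pubertal cells and 5529 in infant cells, a difference of -0.73 (1.66-fold, error 0.20). FDX1 lies within 2-fold, and 1689 of the 14243 genes had a lower difference. STAR differed by 2.87 more than CYP11A1 on the log2 scale, a gap of -2.87 with an error of 0.29, and by a gap of -3.51 from FDX1. These gaps do not depend on how an array is scaled as a whole. The difference of CYP11A1 was past 2-fold under 12 of the 13 other ways of processing, and scaling on the spike-in control probes gave -0.46. On that scale, where every difference is higher by 0.91, FDX1 lies at 0.18.

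CYP17A1, the enzyme that commits steroids to the androgen route, was nearly as low as STAR. Its probe had an intensity of 82.2 in pubertal cells and 1433 in infant cells. The pubertal signal is dim yet well above background, as the lowest such signal on that array was 20.8. The difference was -4.21 (18.5-fold lower, error 0.22), and 9 of the 14243 genes had a lower one. The unprocessed mean signal was 141 on the pubertal array over a local background of 32, and 1532 on the infant one over 30. Near background the choice of correction matters more, and normexp correction with an offset of 50 gave -3.44. The 41 gene spots around it had a median difference of -0.18. The differences of STAR and CYP17A1 lay 0.03 apart (gap -0.03, error 0.30), and their order turned with quantile and loess normalization.

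The enzymes on either side of CYP17A1 in the androgen route did not share its difference. HSD3B1, which turns pregnenolone into progesterone, was measured by a pair of probes. The first had 3136 in pubertal cells and 2303 in infant cells (0.36), and the second had 29720 in pubertal cells and 23910 in infant cells (0.22). Their mean was 0.29 (1.22-fold higher, error 0.14). The second lay in an area counted as disturbed, where some neighbouring spots differ strongly between the arrays, and without it the value was 0.36. The 41 gene spots around this second probe had a median difference of -0.20. HSD3B2, the copy of this enzyme typical of human gonads and adrenals, had 13161 in pubertal cells and 10400 in infant cells, a difference of 0.25 (1.19-fold higher, error 0.20). The human HSD3B1 and HSD3B2 genes are close copies, so their probes may report the same macaque transcript, and the values are not separate evidence.

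HSD17B3, the testicular enzyme that makes testosterone from androstenedione, had an intensity of 996 in pubertal cells and 734 in infant cells. The difference was 0.35 (1.28-fold higher, error 0.20). CYP17A1 lay below HSD3B2 by a gap of -4.46 and below HSD17B3 by a gap of -4.56 (error 0.30 each). The HSD3B genes and HSD17B3 stayed within 2-fold except on the spike-in scale, where HSD3B1 lay at 1.20, HSD3B2 at 1.16 and HSD17B3 at 1.26. Which of these steps counts as unchanged therefore depends on the scale, whereas STAR and CYP17A1 were at least 2-fold lower on all of them.

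**Figure D2:**
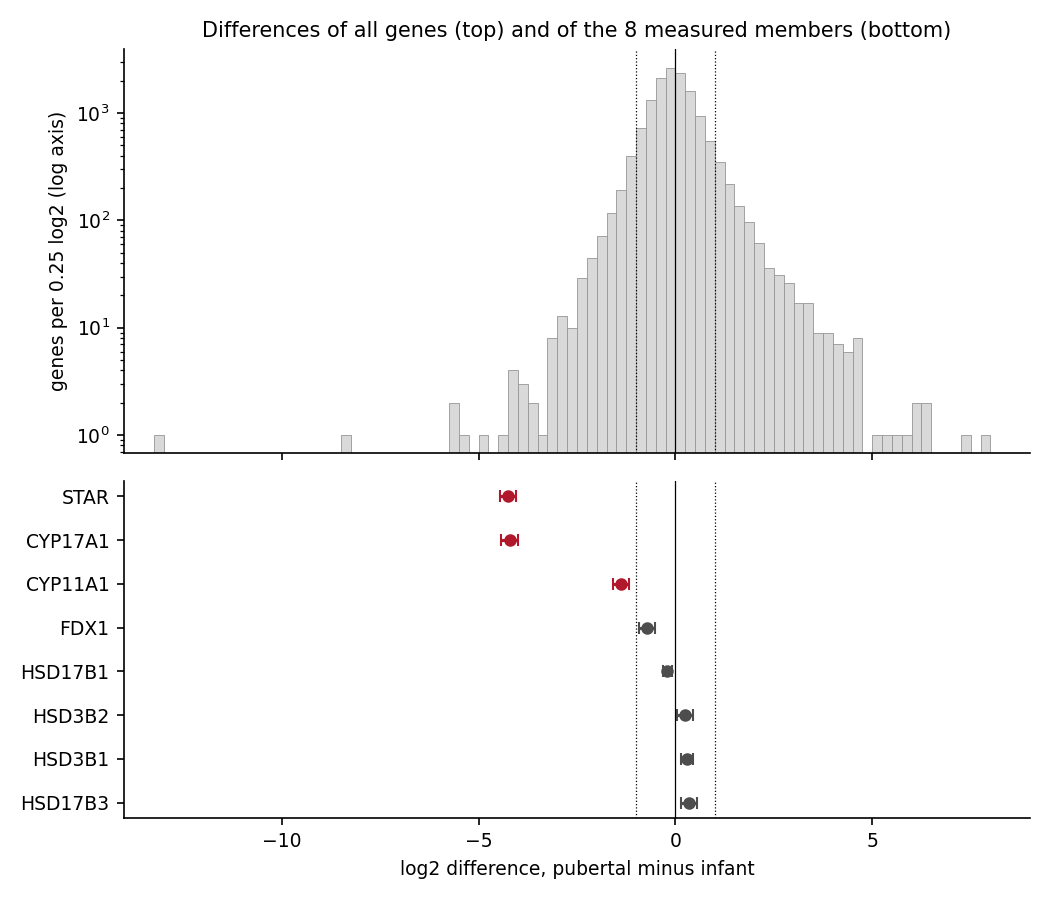
Log2 difference, pubertal minus infant, for all 14243 genes measured on both arrays (top, genes per bin on a log axis) and for the 8 measured steroid genes (bottom, bars are the scanner software's error, dotted lines mark 2-fold). STAR at -4.24 and CYP17A1 at -4.21 lie in the far lower tail, CYP11A1 at -1.37 just past 2-fold, and the other 5 genes between the dotted lines.

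The estrogen enzymes gave little or conflicting signal. HSD17B1, which reduces estrone to estradiol, has 5 probes of that name, and they disagreed. The 2 designed on its RefSeq mRNA were dim, at 180 and 78.3 in pubertal cells and 140 and 72.1 in infant cells, with differences of 0.27 and 0.03. Of the 3 designed on the cDNA clone BC033110, 1 was bright, with 1932 in pubertal cells and 3415 in infant cells (-0.91), and 2 were not well above background. The gene mean over the 3 measured probes was -0.20 (error 0.13). With the RefSeq mRNA probes alone, a choice made after the values were seen, it was 0.15, so HSD17B1 has no settled direction here. Whether the clone probes report HSD17B1 or a neighbouring transcript was not tested.

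CYP19A1, the aromatase, had 4.73 in pubertal cells and 6.83 in infant cells with its RefSeq mRNA probe. Its other probe had 4.57 in pubertal cells and 3.73 in infant cells. The lowest signals well above background were 20.8 in pubertal cells and 18.5 in infant cells, so both probes lie under them and no fold is given. LHCGR, the receptor for luteinising hormone, had 5.39 in pubertal cells and 4.86 in infant cells, likewise not well above background. A human probe can miss a macaque transcript, so a dim signal does not show that a gene is silent.

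Over the 2 arrays, the genes with differences closest to those of STAR and CYP17A1 were LOC401863 at -4.25 and MYH2, a skeletal muscle myosin, at -4.41 on the lower side. On the other side were DKK1, a secreted Wnt inhibitor, at -4.04, MYBPC3, a cardiac myosin-binding protein, at -3.96, and NANOS1, an RNA-binding protein, at -3.93. SLPI, a protease inhibitor, was further down at -4.95. The likeness is one of size of difference alone, from 1 array per group, and each of these genes was measured by 1 probe.

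**Figure D3:**
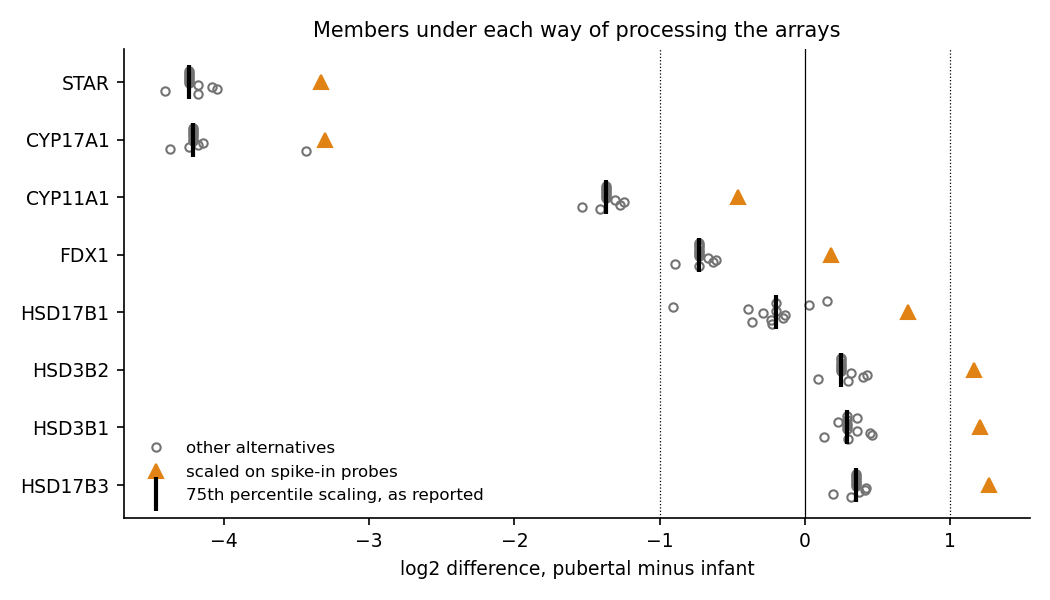
Log2 difference, pubertal minus infant, of the 8 measured genes as reported (black bars), under other ways of processing the arrays (open circles) and with scaling on spike-in probes (orange triangles), with dotted lines at 2-fold. STAR and CYP17A1 stay below -3 throughout, CYP11A1 passes 2-fold in all but the spike-in scale, and HSD17B1 falls on both sides of 0.

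The rest of the steroid pathway was followed in 6 lists holding 79 genes, of which 55 were measured on both arrays. Of these, 13 (23.6%) were at least 2-fold lower in pubertal cells and 3 (5.45%) at least 2-fold higher, with a median of -0.28. The shares over all genes were 6.32% lower and 7.32% higher. This balance turned on the spike-in scale, where 4 were at least 2-fold lower and 14 higher, with a median of 0.63. The 4 still lower were HSD17B14, CYP1B1, NR0B2 and NR4A2. Over all 14243 genes that scale put 140 at least 2-fold lower and 5618 higher, with a median of 0.86. With the other scalings (median, quantile, loess) 11 to 16 of the 55 pathway genes were lower and 2 to 3 higher. Among genes that supply cholesterol and deliver it to mitochondria, 2 of 13 measured were at least 2-fold lower and 0 higher, with a median of -0.37. SCARB1, the receptor that takes up cholesterol from high-density lipoprotein, had a log2 level of 0.13 in pubertal cells and 1.37 in infant cells (-1.25). NPC2, which moves cholesterol out of lysosomes, differed by -0.80 and LIPE, which frees it from esters, by -0.78, both within 2-fold.

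Genes that pass electrons to steroid enzymes all had values below 0, 2 of 6 at least 2-fold. Among all measured genes 54.2% had values below 0 and 6.32% were at least 2-fold lower. CYB5A, the cytochrome b5 that aids the lyase step of CYP17A1, had a log2 level of 6.13 in pubertal cells and 7.30 in infant cells (-1.17). POR, the reductase that CYP17A1 and CYP19A1 need, had 1.57 in pubertal cells and 2.45 in infant cells (-0.88), within 2-fold. H6PD, which makes NADPH in the endoplasmic reticulum, differed by -1.01, and CYB5B, a mitochondrial cytochrome b5, by -0.96. On the spike-in scale each of these values is higher by 0.91, and 3 of the 6 genes lie below 0 with 0 past 2-fold. Quantile and loess normalization each put 2 of the 6 above 0, with 1 and 0 at least 2-fold lower in that order. With scaling on the median all 6 lay below 0, 4 of them at least 2-fold lower.

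Among other sex steroid converting enzymes, 13 of 25 on the array were measured, with 3 at least 2-fold lower and 2 higher (median -0.22). The shares over all measured genes were 6.32% and 7.32% in that order. HSD17B14, a 17-beta-hydroxysteroid dehydrogenase, had a log2 level of -2.35 in pubertal cells and 0.04 in infant cells (-2.39, 5.23-fold lower). CYP1B1, which hydroxylates estradiol, had 0.95 in pubertal cells and 3.16 in infant cells (-2.22, 4.65-fold lower). HSD17B6, which oxidises androstanediol, differed by -1.33. CYP1A1, another estrogen hydroxylase that also answers to aryl hydrocarbons, stood on the opposite side, with -0.79 in pubertal cells and -2.90 in infant cells (2.11, 4.32-fold higher).

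The enzyme SRD5A2, which turns testosterone into dihydrotestosterone, was well above background in pubertal cells alone, with a level at least 2.74-fold higher. SRD5A1, which does the same, was also found there alone, at least 1.30-fold higher. These folds are lower bounds, set against the lowest signal that counted as well above background in infant cells, or against the gene's own signal there where that was higher. Of the 5 corticosteroid enzymes, 3 were measured on both arrays and 0 of them passed 2-fold, with HSD11B2, which inactivates cortisol, at -0.48. CYP11B2, the aldosterone synthase, was well above background in infant cells alone, at least 3.24-fold (1.70 log2) lower in pubertal cells. On the spike-in scale that bound is smaller by 0.91 log2. Its close copy CYP11B1 differed by 0.09. CYP21A2, another of the 5, was well above background in pubertal cells alone, at least 1.90-fold higher.

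**Figure D4:**
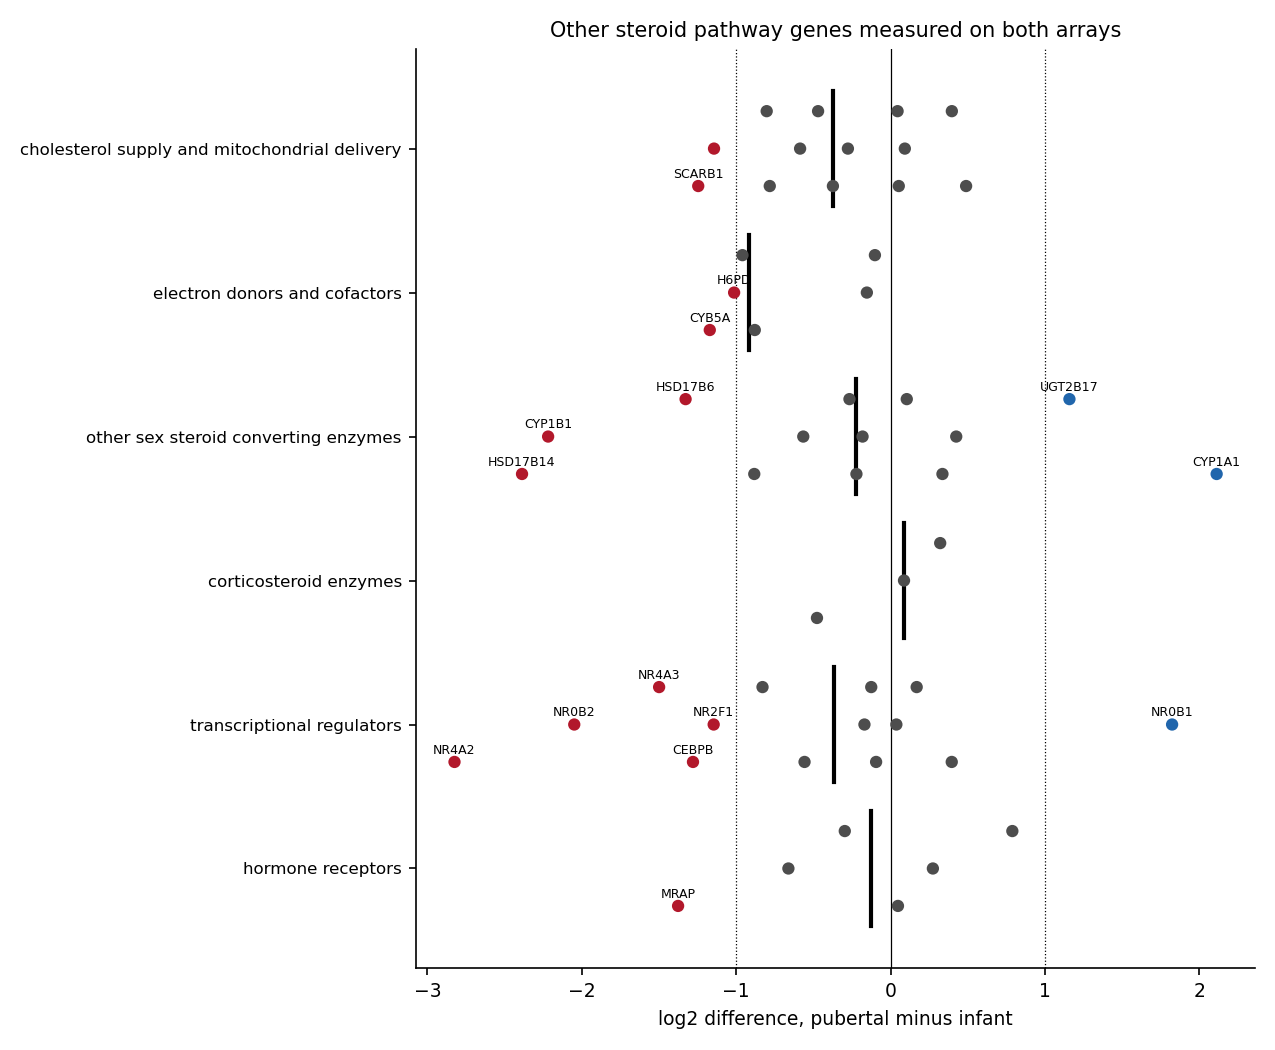
Log2 difference, pubertal minus infant, of the other steroid pathway genes measured on both arrays, a row per list. Red points are at least 2-fold lower and blue points at least 2-fold higher in pubertal cells, black bars are list medians and dotted lines mark 2-fold. Lower points past 2-fold outnumber higher ones on the scale shown, 13 against 3, whereas on the spike-in scale they number 4 against 14. Over all measured genes the counts are 900 against 1042 on the scale shown and 140 against 5618 on the spike-in scale.

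Transcription factors that act on steroid genes were divided. Of 14 measured, 5 were at least 2-fold lower and 1 higher in pubertal cells, with a median of -0.36. The shares over all measured genes were 6.32% lower and 7.32% higher. On the spike-in scale 2 of the 14 were at least 2-fold lower and 3 higher, with a median of 0.55. That scale put 140 of all 14243 genes at least 2-fold lower and 5618 higher. NR5A1, the nuclear receptor that steroid genes depend on, had a log2 level of -1.11 in pubertal cells and -1.27 in infant cells (0.17, error 0.21). GATA4, its partner factor, had -0.36 in pubertal cells and -0.23 in infant cells (-0.13, error 0.21). Neither of these differences was larger than its scanner error. The spike-in scale, however, raises every difference by 0.91. It puts NR5A1 past 2-fold higher, and it turns the sign of GATA4. Whether NR5A1 counts as unchanged therefore depends on the scale.

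NR0B1, the repressor of NR5A1, was the higher one, with a log2 level of 0.04 in pubertal cells and -1.78 in infant cells (1.82, 3.54-fold). NR0B2, a related corepressor, ran the other way, with -0.02 in pubertal cells and 2.03 in infant cells (-2.05, 4.14-fold lower). The NR4A nuclear receptors are induced by cAMP. NR4A2 had -3.94 in pubertal cells and -1.11 in infant cells (-2.82), and NR4A3 had 1.18 in pubertal cells and 2.68 in infant cells (-1.50). NR4A1, which binds the promoters of steroid genes in Leydig cells, had -0.08 in pubertal cells and 0.75 in infant cells (-0.83), within 2-fold. Of these 3 genes, NR4A2 alone was at least 2-fold lower on the spike-in scale as well.

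Of 10 hormone receptor genes and receptor partners, 6 were measured on both arrays, with a median of -0.12. Beside all-gene shares of 6.32% lower and 7.32% higher, 1 was at least 2-fold lower and 0 were higher. That gene was MRAP, the accessory protein of the corticotropin receptor, at -1.38, while the signal of the receptor MC2R itself did not stand well above background in either culture. FSHR, the receptor for the FSH added to both cultures, was dim, with a log2 level of -3.27 in pubertal cells and -4.05 in infant cells (0.79, error 0.35). ESR2, an estrogen receptor, differed by -0.66 and IGF1R by -0.30.

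Markers of the cells that a testis culture can hold were read beside the steroid genes. All 16 Sertoli cell markers were measured on both arrays, with a summed level of 346 in pubertal cells and 257 in infant cells, in units of the array's 75th percentile. Of these, 4 were at least 2-fold higher in pubertal cells, among them AMH at 3.28, TF at 3.32 and DMRT1 at 2.11. The 1 at least 2-fold lower was INHBB, at -1.31. Values lay above 0 for 13 of the 16 and below 0 for 3, with a median of 0.43. For comparison, the share of all measured genes past 2-fold was 7.32% upward and 6.32% downward on the same scale. Values below 0 made up 54.2% of them. Leydig cells are the usual site of STAR and CYP17A1, and 5 of their 9 markers were measured on both arrays. Of those, 0 passed 2-fold in either direction, against 13.6% of all measured genes. With 5 genes, a count of 0 is close to that share. Their median was 0.32 (HSD11B1 and NR2F2 among them also stand in the pathway lists), and their summed level was 11.2 in pubertal cells and 10.1 in infant cells. INSL3, the hormone that defines Leydig cells, had a log2 level of -1.12 in pubertal cells and -1.54 in infant cells (0.41, error 0.16). DLK1 differed by 0.56 and PDGFRA by -0.53. CFD, IGF1 and VCAM1 were not well above background on either array, and LUM, a matrix gene of stromal cells too, was so in pubertal cells alone (at least 6.73-fold higher). Most of the summed level came from HSD11B1 and NR2F2. On the spike-in scale 3 of the 5 Leydig cell markers passed 2-fold upward and 0 downward. That scale raises every difference. It put 13 of the 16 Sertoli cell markers past 2-fold upward, and 5618 of all 14243 genes upward and 140 downward. The part of Leydig cells in the differences of STAR and CYP17A1 was not tested.

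Several markers of other cell types were higher in the pubertal culture. Over all measured genes 7.32% were at least 2-fold higher and 6.32% lower. Of 9 peritubular myoid markers, all measured, 6 were at least 2-fold higher and 0 lower, ACTA2 at 3.46, ACTG2 at 3.10 and MYH11 at 2.24, with a summed level of 183 in pubertal cells and 96.8 in infant cells. Of 9 macrophage markers, 7 were measured and 4 were at least 2-fold higher, CD163 at 3.09, CSF1R at 2.07 and PTPRC at 1.99, while CD68 at -0.94 and ITGAM at -0.08 had values below 0, with a summed level of 5.14 in pubertal cells and 1.24 in infant cells. Of 10 germ cell markers, 4 were measured on both arrays and 3 were at least 2-fold higher, DAZL at 4.72, TEX101 at 3.48 and MAEL at 3.37, and 5 more were well above background in pubertal cells alone. Over the 4 measured on both arrays the summed level was 9.03 in pubertal cells and 3.98 in infant cells, most of the infant sum coming from UTF1, which differed by 0.24. Of 7 endothelial markers, 3 were measured and PECAM1 was at least 2-fold higher, at 1.43, with a summed level of 1.68 in pubertal cells and 0.79 in infant cells. The counts depend on the scale. With scaling on the median 4 of the 9 myoid markers were at least 2-fold higher, and on the spike-in scale all 9 were. The part of these cell types in the values of the steroid genes was not tested.

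**Figure D5:**
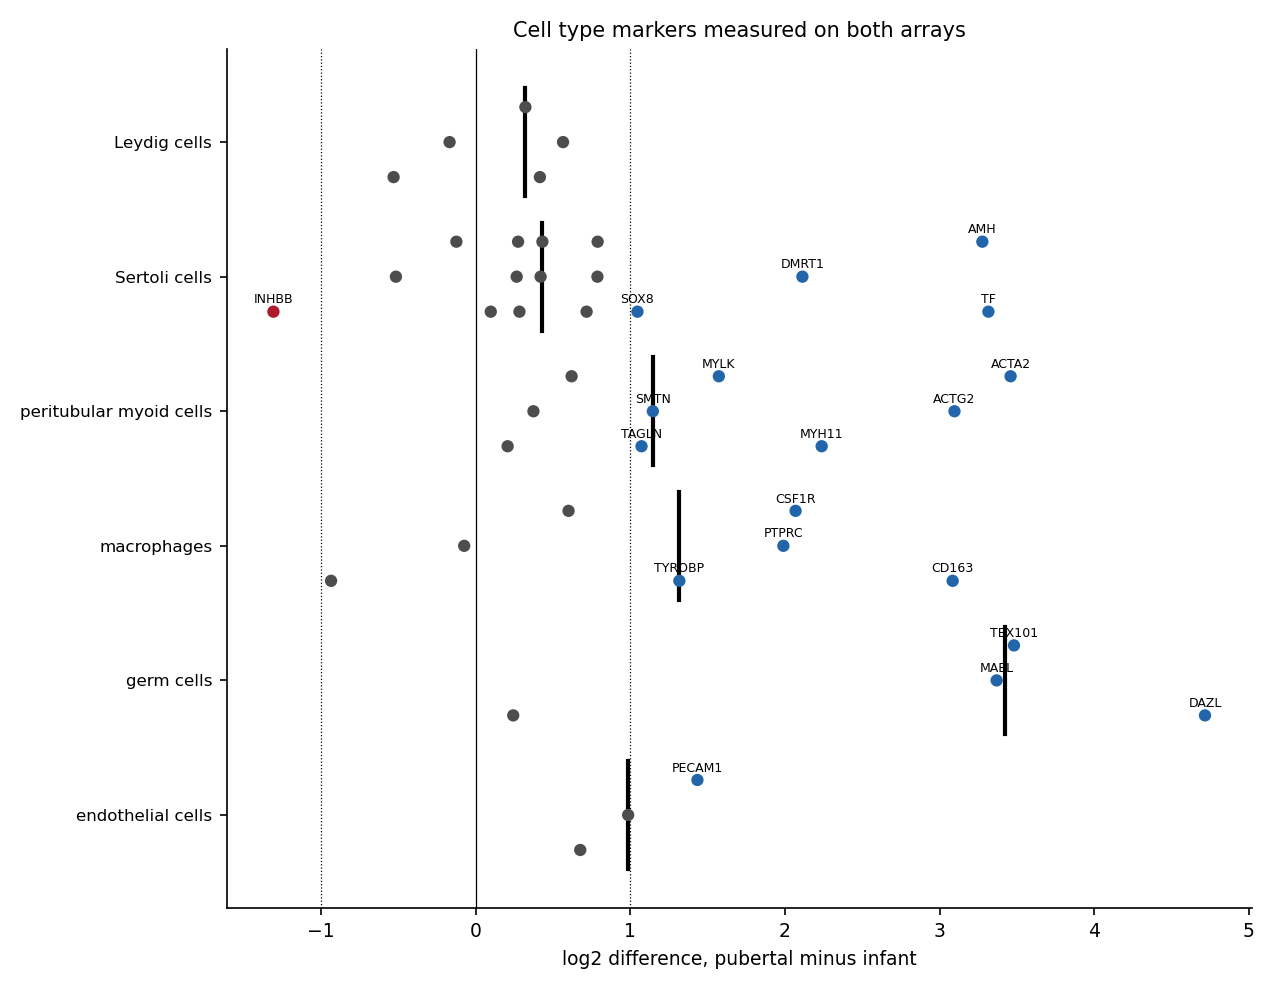
Log2 difference, pubertal minus infant, of cell type markers measured on both arrays, a row per cell type, with colours, bars and dotted lines as for the pathway lists. On the scale shown the 5 Leydig cell markers lie within 2-fold, while myoid, macrophage and germ cell markers reach as high as 3.46, 3.09 and 4.72 in that order. Of all measured genes 13.6% pass 2-fold in either direction on that scale.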

How the data were processed

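The authors deposited 1 scanner file per array, holding spot intensity values. The software was Agilent Feature Extraction, version 10.5.1.1, as the submitters' processing notes state. Per the file headers, the processed intensity was background-subtracted and detrended within each array, with no scaling between arrays recorded, and the flags for background, saturation and outliers come from the same software. The array is a human design on hg18. Samples were grouped by their titles. The number of arrays limits the precision.

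Outlier spots (96 pubertal, 91 infant) were left out. Processed signals were put on the log2 scale, the array's 75th percentile was subtracted and spots of a probe averaged. A probe was measured where at least 50% of its spots were well above background on both arrays, and a gene took the mean of such probes. Genes are names that differ from the probe's accession. Called means at least 2-fold. No test was made. Disturbed areas (801 spots) are spots with at least 2 neighbours within 2.3 grid units that differ by over 4 log2 the same way, or with at least 6 dim neighbours within 4.2 units whose median exceeds 1.5 in size. The scalings of the gene lists were added after the values were seen. Normexp used limma 3.58.1. The functions were tested on simulated data. The members, lists and alternatives were chosen with earlier results of these data known. All 10 genes are named. Of each pathway list at most 4 and of each marker list at most 3 genes are named, by size of difference, beside INSL3, AMH, FSHR, NR5A1, NR0B1, NR4A1 and GATA4, and for STAR and CYP17A1 the 3 nearest differences on each side. Genes well above background on 1 array or on neither, UTF1, CD68, ITGAM and INHBB were named after their values were seen. Some probe sequences and 1 pathway gene past 2-fold are not reported here.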

Additional observations from a re-analysis of the deposited data

How the results depend on the processing

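With 15 alternatives, 14 planned and 1 added after the data were seen, 3 genes at least 2-fold lower became 2 with scaling on spike-in probes and at a 4-fold threshold, and 4 at a 1.5-fold threshold. The count of genes at least 2-fold higher was 0 except with spike-in scaling, where it was 3, because that scale raises every difference by 0.91. The median difference of the measured genes was 0.44 with spike-in scaling, -0.25 with no filter on dim probes, -0.82 with the brightest probe of each gene and -0.089 with the median of all probes and no filter. No called gene turned round. STAR and CYP17A1 were at least 2-fold lower under all 13 alternatives that change a value, STAR from -4.40 to -3.33 and CYP17A1 from -4.37 to -3.30. CYP11A1 ranged from -1.53 to -0.46. HSD17B1 changed sign under 3 alternatives and FDX1 under 1. Of all measured genes, 1042 passed 2-fold upward and 900 downward (53.7% upward). Normexp correction gave 553 higher and 568 lower, no filter on dim probes 2081 and 1485, the weaker detection flag 1710 and 1363, and spike-in scaling 5618 and 140 (97.6% upward). Scaling on the median moved every difference by -0.16 and left 37.6% upward. At 1.5-fold 2142 were higher and 2392 lower, and at 4-fold 238 and 122. By a weaker detection flag, 1 CYP19A1 probe was measured, at -0.62. No paired analysis was possible because each group has 1 array. Leaving out an array was not possible for the same reason, and dim signals limit CYP19A1, LHCGR and FSHR.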
